A study of Mus musculus with 148 samples.

Results

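*Mon Fn1* is a subpopulation of inflammatory monocytes from the lungs and tumors of mice with breast cancer. Its members are the sorted cells (wells) that the authors' annotation assigns to this subpopulation. They were 3053 of 23425 annotated immune cells (13%) and 48.4% of the 6308 monocytes, the others being *Mon Ace*, *Mon Thbs1* and *Mon MHC-II*. All mice were C57BL/6 females carrying a photoactivatable GFP (PA-GFP), which marks cells in a region that has been illuminated under the microscope. EO771 breast cancer cells labeled with tdTomato were injected into the mammary gland at 8 weeks of age, tumors were resected 3 weeks later, and lungs were imaged until metastases appeared. Immune cells were sorted singly into wells and their mRNA counted with unique molecular identifiers (UMIs), which count each captured molecule once.

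The cells came from 8 tissue statuses. Control lungs were those of PA-GFP mice without a tumor, and Pre-MET lungs those of mice that still carried the primary tumor and had no metastasis. Relapse-free lungs came from mice whose tumor had been resected and in which no metastasis had appeared, and distal normal tissue was a lung section of mice with metastases that showed no tdTomato signal under the microscope. Metastases were lung sections holding a lesion, whereas the metastasis core and the invasive margin were illuminated regions whose GFP+ cells were sorted. Primary tumors (PT) were taken from the mammary gland, in 3 of 4 cases from the same mice as the Pre-MET lungs. EO771 is a single cell line, so all tumors share its genotype. Lungs and tumors were dissociated with different programs, which cannot be told apart from the tissue in any comparison of PT with lung. Cores, margins and some cells of 2 relapse-free mice were sorted on GFP and the rest on CD45.

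Inflammatory monocytes leave the bone marrow through the chemokine receptor CCR2, circulate in the blood and enter inflamed tissue and tumors, where they can become macrophages or antigen-presenting cells. They carry high Ly6C on their surface, secrete matrix and protease genes, and respond strongly to interferons (IFN). Type I IFN induces antiviral genes, many of which carry a repeated GAAA sequence near their start, and IFNγ induces MHC class II and a family of GTPases that attack intracellular microbes.

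The UMIs of *Mon Fn1* wells were summed for each mouse and tissue status. The 54 sums with at least 10 wells, from 3000 wells, were used, and 53 wells in 9 smaller samples were not. The sums were 3 control, 6 relapse-free and 3 Pre-MET lungs, 13 distal normal tissues, 13 metastases, 7 cores, 5 margins and 4 PT, with 8913 to 591423 UMIs each. A level is given in CPM, the UMIs of a gene in a sum scaled to the same total in every sum. In the shallowest core 1 UMI was worth 99.8 CPM, against 2.5 to 3.24 CPM in Pre-MET lungs, so a core at 0 may still express a gene. Wells of PT were deeper, with a median of 6409 UMIs in the median sample against 937 to 2104.5 elsewhere. No well ID occurred on more than 1 plate.

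The plates came from 12 sequencing batches. All control lungs were in a batch of their own, so control and batch cannot be told apart, and Pre-MET lungs shared batches only with 2 relapse-free lungs. UMIs assigned to pseudogenes differed in share between sums, and the part of the batch in this was not tested. They made up 16.9 to 17.3% of UMIs in Pre-MET lungs, 11.7 to 12.7% in control lungs, 9.28 to 12.1% in PT and 10.6 to 19.1% in relapse-free lungs. Reads with multiple mapping positions had been excluded, so pseudogenes and the genes they copy are uncertain, and are given here by count.

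The cells matched the genes that mark them. *Fn1*, which encodes fibronectin (chr1:71585520-71653200, minus strand), had a median of 1004 CPM over the 54 sums, the highest of the 26 subpopulations, followed by *Mon Thbs1* at 452 CPM. *Ccr2* was also highest here, at 805 CPM, ahead of *Mon Thbs1* at 612 CPM. *Vcan*, which encodes the matrix proteoglycan versican, was second at 455 CPM, below *Mon Thbs1* at 579 CPM. The other markers were not particular to these cells by level: the protease gene *Mmp8* (153 CPM) and the galectin gene *Lgals3* (2540 CPM) each had the fifth highest median, below 4 neutrophil subpopulations for *Mmp8* and below *Mac Gpnmb* (7455 CPM) among others for *Lgals3*. Since the subpopulations were built by clustering these cells, the ranks are a description and were not tested.

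**Figure D1:**
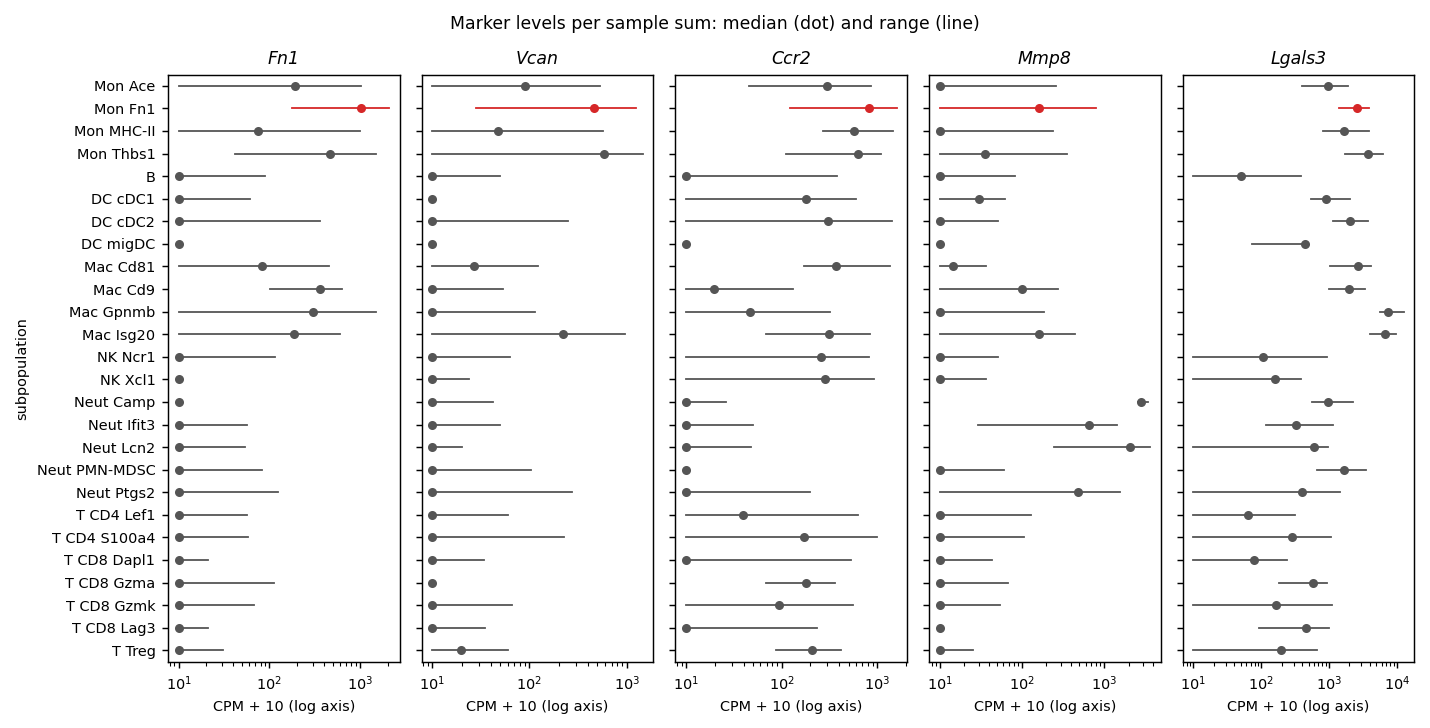
Levels of the 5 marker genes in the 26 subpopulations, as CPM + 10 on a log axis, where dots are the median over sums of at least 10 wells and lines run from the lowest to the highest sum. *Mon Fn1* (red) has the highest median of *Fn1* and *Ccr2*, and neutrophils have the highest medians of *Mmp8*.

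Of the 22 genes of the classical monocyte list, 5 had their highest median in *Mon Fn1*, 10 their highest or second highest, and the lowest rank was 18 (*Ly6a*). *Ly6c2*, which encodes the Ly6C antigen, had a median of 2307 CPM and ranked first, and so did *F13a1* (coagulation factor XIII, 758 CPM) and *S100a4* (2193 CPM). Within samples that held both subpopulations, *Fn1* was higher than in *Mon Ace* in 30 of 31 samples, higher than in *Mon MHC-II* in 21 of 22, and higher than in *Mon Thbs1* in 16 of 22. Against *Mon Thbs1*, *Vcan* was higher in *Mon Fn1* in 11 of 22 samples, and *Spp1* (osteopontin) was lower in 20 of 22. *Cd74*, the invariant chain of MHC class II, was lower than in *Mon MHC-II* in 22 of 22 samples. *Apoe*, which encodes apolipoprotein E, was lower than in *Mon Ace* in 31 of 31 samples.

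The share of *Mon Fn1* among monocytes differed widely between statuses. It was 23.0, 23.8 and 24.8% in the 3 control lungs, and 63.7, 70.1 and 75.0% in the 3 Pre-MET lungs. These groups did not overlap, with a difference of 45.8 percentage points (two-sided exact permutation test, p = 0.1, the smallest that 3 samples against 3 allow). In the 6 relapse-free lungs the share ran from 35.0 to 48.2% with a median of 40.7%, above all control lungs (17.8 points, exact p = 0.0238, adjusted over 8 comparisons 0.0381). That p is the smallest these groups allow, and without any one of the control lungs it became 0.0714, again the smallest possible.

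In mice with metastases the share fell from the surrounding lung toward the lesion. Distal normal tissue ranged from 31.8 to 87.8% with a median of 73.9% in 14 samples, and was higher than relapse-free lungs by 27.1 points (exact permutation test, p = 0.00181, adjusted 0.0101). Metastases ranged from 14 to 80.6% with a median of 47.3%, and the difference from distal normal tissue was -17.4 points (permutation test, p = 0.0201, adjusted 0.0381). The difference held within animals, as the metastasis was lower in 11 of 13 mice, with a mean difference of -16.2 points (exact sign-flip permutation test, p = 0.00732). As a percentage of all immune cells this difference was -5.24 points and did not pass (permutation test, p = 0.321).

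Cores held fewer *Mon Fn1* among their monocytes than margins. Cores ranged from 12 to 61.9% with a median of 33.3% in 13 samples, and margins from 27.8 to 100% with a median of 76.6% in 7 samples, a difference of -33.2 points (exact permutation test, p = 0.00519, adjusted 0.0138). In each of the 6 mice with both regions the core was lower, with a mean difference of -39.1 points (exact sign-flip permutation test, p = 0.03125, the smallest for 6 pairs). The margin at 100% held 6 monocytes. The PT had the lowest shares, at 8.67, 10.5, 12 and 12.4%, of which 2 lay below all 13 cores (difference of means -21.7 points, exact permutation test, p = 0.00252, adjusted 0.0101). That comparison did not pass as a percentage of all immune cells (-3.11 points, permutation test, p = 0.134). Of these mice, 3 had 63.7 to 75.0% in the Pre-MET lung, but 4 samples against 3 cannot go below p = 0.0571, the value found in the exact permutation test.

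**Figure D2:**
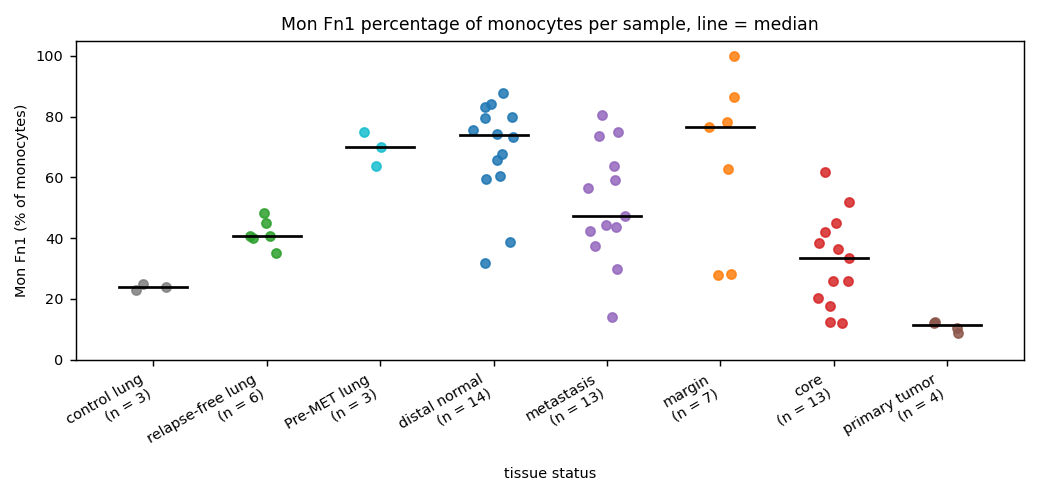
Percentage of *Mon Fn1* among monocytes in each sample with at least 5 monocytes, by tissue status, where points are samples and lines are medians. The 3 control lungs lie between 23.0 and 24.8%, the 3 Pre-MET lungs between 63.7 and 75.0%, and the 4 PT between 8.67 and 12.4%.

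Gene expression within *Mon Fn1* was compared among the 8 statuses with edgeR's quasi-likelihood F test on 3874 genes, and a gene was called at a Benjamini-Hochberg adjusted p below 0.05. A difference anywhere among the statuses was called for 259 genes (6.69%), of which 70 were pseudogenes and 150 were protein-coding genes other than ribosomal protein genes and mitochondrial ones. With the sequencing batch as a term in the fit, 24 genes (0.620%) were called, 20 of them among the 259. In that fit each sum carries 1 batch label, although a sum can hold wells of several batches. Pre-MET mouse 8, for example, had 109 wells in 1 batch and 89 in another. By label, control and Pre-MET sums each make up a batch of their own. So do the PT of mice 9, 10 and 38 together, and relapse-free mice 6, 7 and 11 are in batches without another status. The fit thus tests differences among the other statuses, with PT mouse 8 as the only PT in effect, and is a narrower test. These 24 hold *Spp1*, *Dab2*, *Sdc4* and *Fn1*, which act in matrix and adhesion or in endocytosis, the IFN-induced genes *Cxcl10*, *Ifit3*, *Rsad2*, *Ly6a*, *Ifi204* and *Ifitm1*, the lectin gene *Clec4d*, the complement gene *C1qb*, the Fc receptor gene *Fcgr1*, and *Jun*.

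*Spp1* (chr5:104435118-104441050, plus strand) differed most clearly (adjusted p = 9.26e-09, edgeR, and 1.29e-05 with the batch term). Osteopontin is a secreted phosphoprotein that binds integrins and CD44 and is made by tumor-associated macrophages. The PT of mice 8, 9, 10 and 38 had 434, 42.9, 392 and 237 CPM. The 7 cores ranged from 0 to 536 CPM with a median of 200 CPM, and the 5 margins from 0 to 178 CPM with a median of 36.9 CPM. Metastases had a median of 8.64 CPM and at most 88.8 CPM, distal normal tissues a median of 0 and at most 22.3 CPM, and no control, relapse-free or Pre-MET lung exceeded 20.9 CPM. Levels above 100 CPM thus occurred in PT, cores and 1 margin, while the cores of mice 31 and 32 were at 0. *Spp1* was higher still in other subpopulations, with medians of 4101 CPM in *Mac Isg20* and 887 CPM in *Mon Thbs1*.

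*Lyz1* (adjusted p = 4.94e-07) and *Apoe* (4.50e-06) were also among the 10 genes with the smallest p in the edgeR test over the 8 statuses. *Lyz1* encodes a lysozyme and has a near-identical copy, *Lyz2*, the most abundant transcript of these cells, so its counts are uncertain. Its median was 3564 CPM in control lungs, 4001 CPM in relapse-free lungs and 3759 CPM in Pre-MET lungs, against 862 CPM in distal normal tissues and 286 CPM in PT. Relapse-free lungs ranged from 594 to 7061 CPM and distal normal tissues from 330 to 2533 CPM. The lowest relapse-free lung, that of mouse 35, was in the batch of PT mouse 8, in which all 8 lung sums, its own included, had 134 to 682 CPM. The PT of mouse 8 had 970 CPM, above all 8, so in the only batch with both tissues the PT was not lower. Relapse-free mice 18 and 29, in batches that also held distal normal tissue, had 1282 and 3584 CPM, and mice 6, 7 and 11, in batches apart from it, had 4419 to 7061 CPM. Mouse 29 was thus above all distal normal tissues, while mice 18 and 35 lay within their range. By label, of the relapse-free mice only 6 and 7 were in the same batch. Batch and mouse therefore cannot be told apart in the others, and the part of the batch was not tested. *Apoe* is described with the lungs. With the batch term their adjusted p were 0.0525 and 0.184, but control and Pre-MET lungs do not enter that test.

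**Figure D3:**
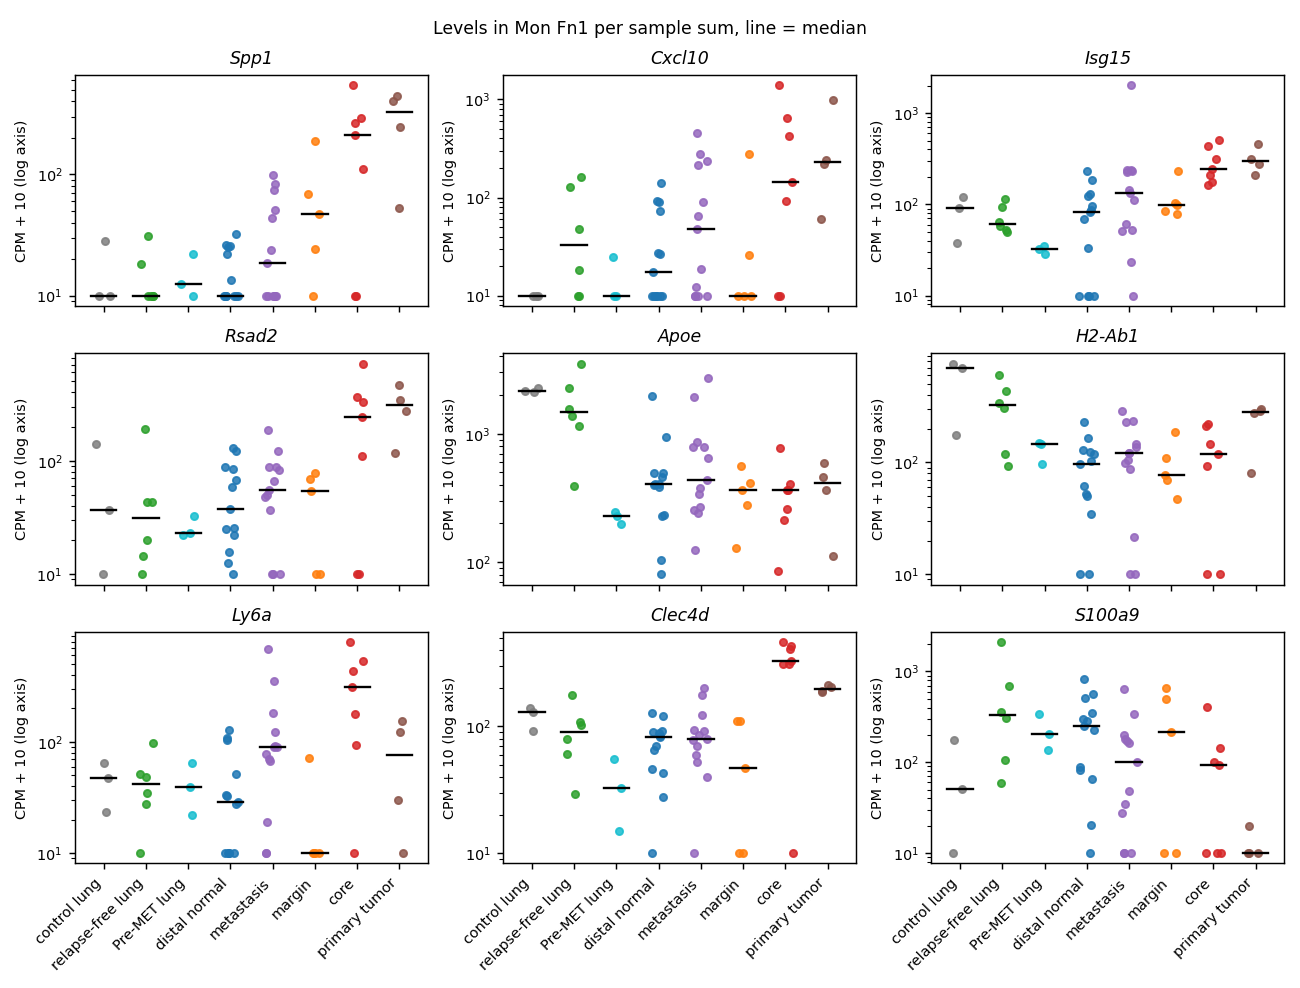
Levels of 9 genes in *Mon Fn1* by tissue status, as CPM + 10 on a log axis, where points are sums of 1 mouse and status and lines are medians. *Spp1*, *Cxcl10*, *Isg15* and *Rsad2* have their highest medians in cores and PT, *Apoe* is high in the 3 control lungs (2111 to 2271 CPM), and *Ly6a* and *Clec4d* are higher in cores than in margins in most samples.

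PT and the Pre-MET lung were taken at the same stage. Of 3874 genes 256 (6.61%) were called, 67 higher in PT (1.73%) and 189 lower (4.88%). The split by class was uneven, since 90 of the 189 lower genes were pseudogenes, 13 were ribosomal protein genes and 6 were mitochondrial, while 63 of the 67 higher genes were other protein-coding genes. The pseudogene share of UMIs and the depth of wells moved with the same contrast, and 3 of the 4 PT shared a batch that held no lung. The part of these in the calls was not tested. A total of 166, 148 and 166 genes were called without PT mouse 9, 10 or 38. Without Pre-MET mouse 8, 9 or 10 it was 172, 177 and 188, of which only 26, 29 and 28 were higher in PT.

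**Figure D4:**
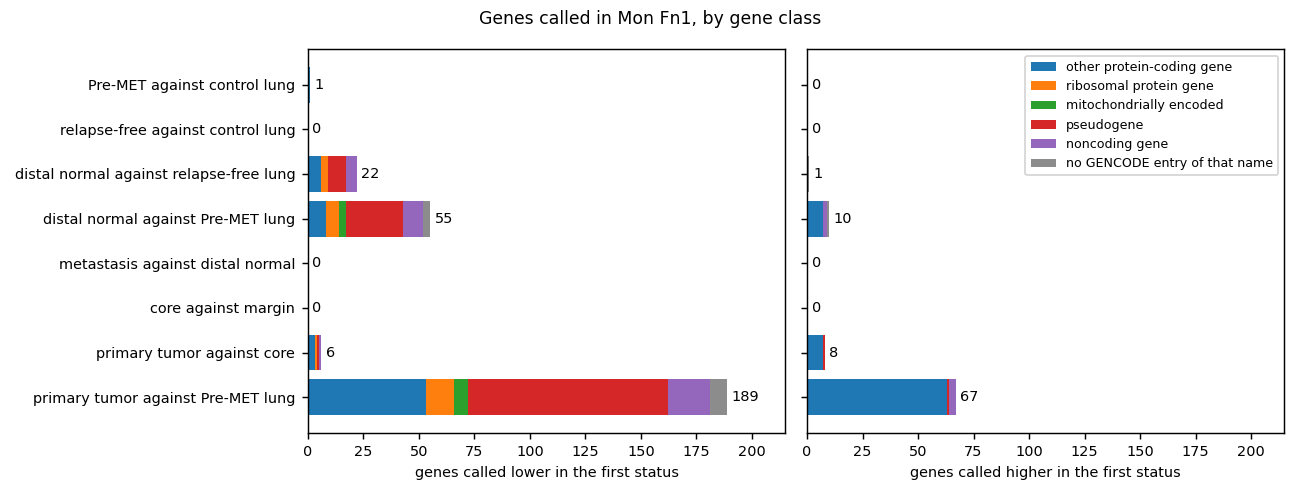
Number of genes called in *Mon Fn1* in each of 8 comparisons (edgeR, adjusted p below 0.05), lower (left) or higher (right) in the first status named, colored by gene class. Of the 189 genes called lower in PT than in Pre-MET lung 90 are pseudogenes, and of the 67 called higher 63 are protein-coding genes of the largest class.

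Of the 37 tested genes of the type I IFN response list, 9 were called higher in PT and 0 lower, against 1.73% of all genes called higher, and 36 had a log2 fold change above 0. The median log2 fold change was 1.40, against 0.06 over all genes tested. Those called were *Isg15*, *Cxcl10*, *Rsad2*, *Ifit2*, *Ifit3*, *Bst2*, *Slfn1*, *Irf7* and *Stat2*. Without Pre-MET mouse 8, 9 or 10 the number called was 5, 5 and 6, and without PT mouse 8, 9, 10 or 38 it was 7, 9, 6 and 9. Over all genes, 26, 29 and 28 of 4762 to 4764 were called higher without Pre-MET mouse 8, 9 or 10. Without PT mouse 8, 9, 10 or 38 it was 60, 62, 54 and 52 of 3822 to 3838. The median stayed between 1.23 and 1.56 in these fits. *Isg15*, *Rsad2*, *Ifit2* and *Cxcl10* kept the call in all 13 edgeR alternatives. In the paper, *Irf7*, *Ifit3*, *Rsad2* and *Cxcl10* were higher in *Mon Thbs1* than in *Mon Fn1*. In comparing PT with metastasis cores, it also gives *Mon Thbs1* as the main monocyte population of both. The part of *Mon Thbs1* cells or RNA in the result was not tested.

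*Isg15*, a ubiquitin-like modifier (chr4:156199424-156200818, minus strand), had 306, 200, 452 and 265 CPM in the PT of mice 8, 9, 10 and 38, and 18.2, 22.7 and 25.0 CPM in the Pre-MET lungs of mice 8, 9 and 10. All PT were above all Pre-MET lungs, also within each of the 3 mice. The log2 fold change was 3.68 ± 0.83 (approximate SE derived from the F statistic, edgeR, adjusted p = 0.00254). *Rsad2*, which encodes the antiviral protein viperin, had 332, 107, 452 and 265 CPM in PT and 12.2, 12.97 and 22.5 CPM in Pre-MET lungs, again without overlap (4.01 ± 0.94, adjusted p = 0.00396). *Cxcl10*, a chemokine that attracts T and NK cells, had 51.1, 229, 985 and 210 CPM in PT, while 2 Pre-MET lungs were at 0 and mouse 10 was at 15.0 CPM (5.87 ± 1.32, adjusted p = 0.00275). *Ifit3* had 204, 243, 945 and 112 CPM against 9.12, 58.4 and 52.5 CPM (3.18 ± 0.85, adjusted p = 0.0123), without overlap. The call was lost without PT mouse 10 (2.22, adjusted p = 0.128) and without Pre-MET mouse 8 (2.60, adjusted p = 0.115).

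Of the 10 tested genes of the list of IFNγ GTPases and the MHC class II regulator, 6 were called higher (*Igtp*, *Gbp7*, *Ifi47*, *Gbp2*, *Gbp5*, *Gbp4*) and 0 lower, again against 1.73% of all genes, and all 10 had a positive log2 fold change, with a median of 2.35 against 0.06 over all genes. *Igtp*, which encodes an immunity-related GTPase, had 332, 50.03, 452 and 363 CPM in PT and 30.4, 16.2 and 47.5 CPM in Pre-MET lungs. The groups did not overlap, although mouse 9 came close to the highest Pre-MET lung (3.11 ± 0.79, edgeR adjusted p = 0.00735). The number of the 10 genes called was 1, 2 and 1 without Pre-MET mouse 8, 9 or 10, and 6, 5, 3 and 2 without PT mouse 8, 9, 10 or 38. Over all genes 26, 29 and 28 of 4762 to 4764, and 60, 62, 54 and 52 of 3822 to 3838, were called higher in these fits. With mouse as a block, 5 of the list could be tested and 2 were called, *Igtp* and *Ifi47*, while *Gbp7* had a log2 fold change of 1.96 and an adjusted p of 0.211. *Cd74* had 281, 993, 261 and 1034 CPM in PT and 73.0, 42.2 and 22.5 CPM in Pre-MET lungs (3.76 ± 0.79, adjusted p = 0.0013). It was the only called gene of 5 MHC class II genes tested, and it kept the call in all 13 alternatives. *Cd74* is higher in *Mon MHC-II* (above), and the part of that subpopulation in the result was not tested.

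The 250 bases before the start of these genes were searched on both strands for GAAA followed by any 2 bases and GAAA again (TTTC, 2 bases and TTTC on the opposite strand), the core of the element found near the start of IFN-induced genes. Of the 46 genes called higher in PT that have a promoter in the RefSeq table (GRCm38.p6, the build of the files), 13 (28.3%) held it, against 4.67% of 2546 tested genes and 2.98% of all 32851 promoters. It was present in 15 of 28 type I IFN response genes tested and in 6 of the 9 called. A match describes the sequence and is not a measured binding site. Stretches of 30 bases are shown for 6 called genes, on the strand of the gene and in its direction, with the match in capitals, because matches were more frequent among the genes called higher than among all genes tested.
*Isg15*, chr4:156200871-156200900, minus strand: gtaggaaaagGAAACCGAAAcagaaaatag
*Cxcl10*, chr5:92349083-92349112, minus strand: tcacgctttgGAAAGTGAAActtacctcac
*Rsad2*, chr12:26456553-26456582, minus strand: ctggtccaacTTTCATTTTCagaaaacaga
*Ifit3*, chr19:34583397-34583426, plus strand: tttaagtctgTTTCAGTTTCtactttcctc
*Igtp*, chr11:58199512-58199541, plus strand: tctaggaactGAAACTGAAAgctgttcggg
*Gbp7*, chr3:142530273-142530302, plus strand: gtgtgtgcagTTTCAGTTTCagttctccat

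Capitals that read TTTC mark a match on the opposite strand. The *Isg15* stretch lies 72 bases before the gene's start and overlaps another 2 matches, and that of *Igtp* lies 34 bases before its start. Promoters of *Irf7*, *Ifit2* and *Slfn1*, the other called type I IFN genes, held no match within these 250 bases.

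Of 12 lipid handling genes tested, 2 were called higher (*Spp1* and *Msr1*) and 0 lower, against 1.73% of all genes called higher, and 11 were above 0, with a median of 0.92 against 0.06 over all genes. *Spp1* (values above; 2.5 CPM in the median Pre-MET lung) was higher by 5.47 ± 1.15 on the log2 scale (edgeR, adjusted p = 0.0013). *Ccl7* and *Dab2*, which are not on that list, were also called. *Ccl7*, a CCR2 ligand that recruits monocytes, had 0, 150, 10.1 and 307 CPM in the PT of mice 8, 9, 10 and 38 and no UMI in the 3 Pre-MET lungs, an at least 43.4-fold higher pooled level (3 UMIs over the Pre-MET lungs taken as the floor). *Dab2*, an endocytic adaptor, had 0, 7.15, 211 and 55.9 CPM, at least 25.7-fold higher on the same floor. Both were at 0 in PT mouse 8, so they were high in some tumors and not in others. *Msr1*, a scavenger receptor for modified lipoproteins, had 293 to 536 CPM in PT and 57.5 to 134 CPM in Pre-MET lungs (2.16 ± 0.64, adjusted p = 0.0245), a call lost without Pre-MET mouse 9 or 10 or PT mouse 38 (adjusted p up to 0.184).

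Of 24 immediate early and heat shock genes tested, 3 were called higher (*Jun*, *Junb*, *Hspa1a*) and 0 lower, against 1.73% of all genes called higher. A log2 fold change above 0 was found for 21, and the median was 0.62 against 0.06 over all genes. *Jun* alone kept the call without Pre-MET mouse 9 or 10, *Junb* lost it without any one Pre-MET mouse, and *Hspa1a* also lost it without PT mouse 8 or 10. *Jun*, a subunit of AP-1, had 970, 686, 935 and 531 CPM in the PT of mice 8, 9, 10 and 38 and 66.9, 35.7 and 55.0 CPM in the Pre-MET lungs (3.79 ± 0.68, edgeR adjusted p = 0.000246). Every PT was above every Pre-MET lung. These genes also react to tissue dissociation, whose program differed between tumor and lung. *Spi1*, which encodes the myeloid factor PU.1, was higher (402 to 1411 against 146 to 270 CPM, 2.25 ± 0.58, adjusted p = 0.00942), and *Klf4*, a factor of monocyte development, was lower (0 to 55.9 against 138 to 158 CPM, log2 fold change -2.52 ± 0.69, adjusted p = 0.0152). The call of *Spi1* was lost without Pre-MET mouse 8 or 9 (adjusted p 0.0641 and 0.0831), and that of *Klf4* without PT mouse 9 or 10 (0.0689 and 0.0617).

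Of the 8 S100 genes tested 3 were called, *S100a8* and *S100a9* lower in PT and *S100a11* higher, against 4.88% of all genes called lower. The median was -0.11, with 4 of 8 above 0. *S100a11* had 2655, 2287, 1036 and 1913 CPM in the PT of mice 8, 9, 10 and 38 and 702, 688 and 623 CPM in the Pre-MET lungs, without overlap (1.47 ± 0.43, edgeR adjusted p = 0.0244), a call lost without any one Pre-MET mouse and without PT mouse 8 or 9 (adjusted p up to 0.164), and without a filter on low counts (1.11, adjusted p = 0.25). *S100a9* had 1 UMI in the 4 PT, in mouse 10 (10.1 CPM), and 128, 195 and 328 CPM in the Pre-MET lungs of mice 8, 9 and 10. The ratio of the pooled levels was 78.7 (95% counting interval 14 to 3120.4; edgeR log2 fold change -5.89 ± 1.47, adjusted p = 0.00691). *S100a8*, its partner in the calprotectin dimer, had 230, 7.15, 221 and 27.9 CPM in PT and 991, 743 and 1798 CPM in Pre-MET lungs (-3.48 ± 1.04, adjusted p = 0.0266), a call lost without Pre-MET mouse 10 or PT mouse 9 or 38 (adjusted p up to 0.110). Neutrophils hold far more of both, with a median of 289009 CPM of *S100a8* in *Neut Camp*. The 14 neutrophil markers, which include both genes, made up 0.010 to 0.066% of UMIs in PT and 0.120 to 0.243% in Pre-MET lungs. The other 12 made up 0.007 to 0.043% and 0.026 to 0.030%, which overlap. Of these 12, *G0s2* was itself called lower in PT, with 0 UMIs against 52 in Pre-MET lungs. That call was lost without Pre-MET mouse 8 or 10 or PT mouse 9, 10 or 38. *Retnlg*, *Cxcr2*, *Ly6g*, *Mmp9*, *Camp*, *Ngp*, *Ltf* and *G0s2* were at 0 in PT, and the part of neutrophil RNA in the result was not tested.

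By batch label, only 1 PT, that of mouse 8, shared its sequencing batch with lung tissue, 8 sums of other statuses. Each sum has 1 label, and whole sums are compared here, whatever the batches of their wells. In that batch it had more *Spp1* (434 against 0 to 178 CPM), *Isg15* (306 against 39.6 to 227 CPM), *Rsad2* (332 against 2.64 to 77.7 CPM) and *Ifit3* (204 against 9.91 to 106 CPM) than all 8 other sums. It had more *Igtp* and *Jun* than 7 of 8 and more *Cd74* than 6 of 8. *Cxcl10* (51.1 against 8.53 to 268 CPM) was above 2 of 8, and *Ccl7* and *Dab2* were at 0. Among genes called lower in PT, *S100a8* (230 against 0 to 2301 CPM) was above 3 of 8, while *S100a9* and *Klf4* were at 0.

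PT were also compared with cores. PT were sorted on CD45 and cores on GFP, which cannot be told apart from the tissue in this comparison. A total of 14 (0.361%) were called, 8 higher in PT (0.207%) and 6 lower (0.155%), and 67 by DESeq2. With DESeq2's size factors in edgeR it was 16, of which 3 were higher and 13 lower, so the split by direction depends on the scaling. At an unadjusted p below 0.05 there were 671. With the batch term 1 gene was called, *Tagln2*, but in that fit 3 of the 4 PT make up a batch of their own and only the PT of mouse 8, whose batch held no core, informs the comparison, through the other statuses. It has 1 PT in effect, so neither calls nor lost calls in it bear on PT as a group. *Csgalnact2*, which encodes an enzyme that starts chondroitin sulfate chains, had 128, 379, 251 and 55.9 CPM in the PT of mice 8, 9, 10 and 38. Of the 7 cores 5 were at 0 and the others at 8.00 and 18.1 CPM, below all PT (4.75 ± 0.88, edgeR adjusted p = 0.00213). The call was lost among wells of at least 1000 UMIs (4.17, adjusted p = 0.198), and with the batch term, with 1 PT in effect, the log2 fold change was 3.71 (adjusted p = 0.367). The 5 margins had 29.5 to 223 CPM, all above the cores, without a call (-3.30 ± 0.95, adjusted p = 0.24).

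Among the other genes called, *Crlf3*, *Mindy2*, *Trps1*, *Coro1b*, *Fgr* and *Ctsa* were higher in PT. *Fgr*, a Src family kinase of myeloid cells, had 332 to 686 CPM in PT and 0 to 272 CPM in cores (1.63 ± 0.41, adjusted p = 0.0459, edgeR). *Rgcc* and *Nr4a2* were lower, *Nr4a2*, an orphan nuclear receptor induced by stimulation, with 0 to 21.4 CPM in PT and 0 to 226 CPM in cores (-3.33 ± 0.84, adjusted p = 0.0459). The groups overlapped, as 2 cores were at 0. Each of the 14 genes lost the call in at least 1 alternative. Leaving out PT mouse 8, 9 or 38 left 7, 2 and 4 calls. *Isg15* (282.6 ± 133 CPM in cores, SD, n = 7, and 306 ± 107 CPM in PT, n = 4) and *Spp1* (196 ± 188 and 277 ± 177 CPM) were not called, with log2 fold changes of 0.54 ± 0.63 and 0.38 ± 0.74.

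Cores and margins were compared over 7 and 5 sums, of which 3 mice gave both. No gene was called by edgeR (0%), nor by DESeq2, while 253 genes had an unadjusted p below 0.05. With the batch term *Ly6a* was called (log2 fold change 4.04, adjusted p = 0.0223). *Ly6a* (chr15:74994877-74998031, minus strand) encodes the IFN-induced surface antigen Sca-1. In the 7 cores it ranged from 0 to 776 CPM with a median of 300 CPM, while 4 margins were at 0 and that of mouse 17 at 61.3 CPM. All cores but that of mouse 32 were above all margins, and the core was above the margin in each of the 3 mice with both. Without the batch term the difference was 3.35 ± 0.85 (adjusted p = 0.198).

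Genes with small unadjusted p are given by their levels. *Clec4d*, a C-type lectin receptor, ranged from 0 to 452 CPM in cores (median 320 CPM) and from 0 to 101.4 CPM in margins (median 36.9 CPM), and 6 of 7 cores were above all margins (2.26 ± 0.58, edgeR adjusted p = 0.198). *Thbs1*, which encodes the matrix glycoprotein thrombospondin and names another monocyte subpopulation, ranged from 166 to 2260 CPM in cores and from 0 to 575 CPM in margins (1.56 ± 0.43, adjusted p = 0.202). *Dab2* had 32 UMIs in cores and 1 in margins, a ratio of 57.8 (95% counting interval 9.66 to 2354). *Fn1* went the other way, with 168 to 1408 CPM in cores and 801 to 1620 CPM in margins (-1.09 ± 0.38, adjusted p = 0.436), and 5 of 7 cores were below all margins.

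IFN genes ran in the same direction without a call. Of 37 type I IFN response genes, 11 had an unadjusted p below 0.05 and 31 a log2 fold change above 0, with a median of 0.67 against -0.14 over all genes tested. *Cxcl10* was at 0 in 2 cores and reached 1392 CPM in that of mouse 17 (median 134 CPM), while 3 margins were at 0, that of mouse 17 was at 16.2 CPM and that of mouse 36 at 267 CPM (3.78 ± 1.09, edgeR adjusted p = 0.24). The core was higher in 3 of 3 mice. *Ccl2*, the principal CCR2 ligand, ran from 0 to 2097 CPM in cores and from 29.5 to 223 CPM in margins (2.61 ± 0.74, adjusted p = 0.231), with 2 cores below all margins. *Rsad2* had a median of 235 CPM in cores and 44.5 CPM in margins (2.65 ± 0.79, adjusted p = 0.271). The IFNγ GTPase list had a median of 0.96 with 9 of 10 above 0, and the 9 tested chemokine genes were all above 0, with a median of 0.87. The paper found *Mon Thbs1*, in which it reports more *Cxcl10*, *Rsad2* and *Ccl2*, concentrated in the core. The part of that subpopulation in these levels was not tested.

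**Figure D5:**
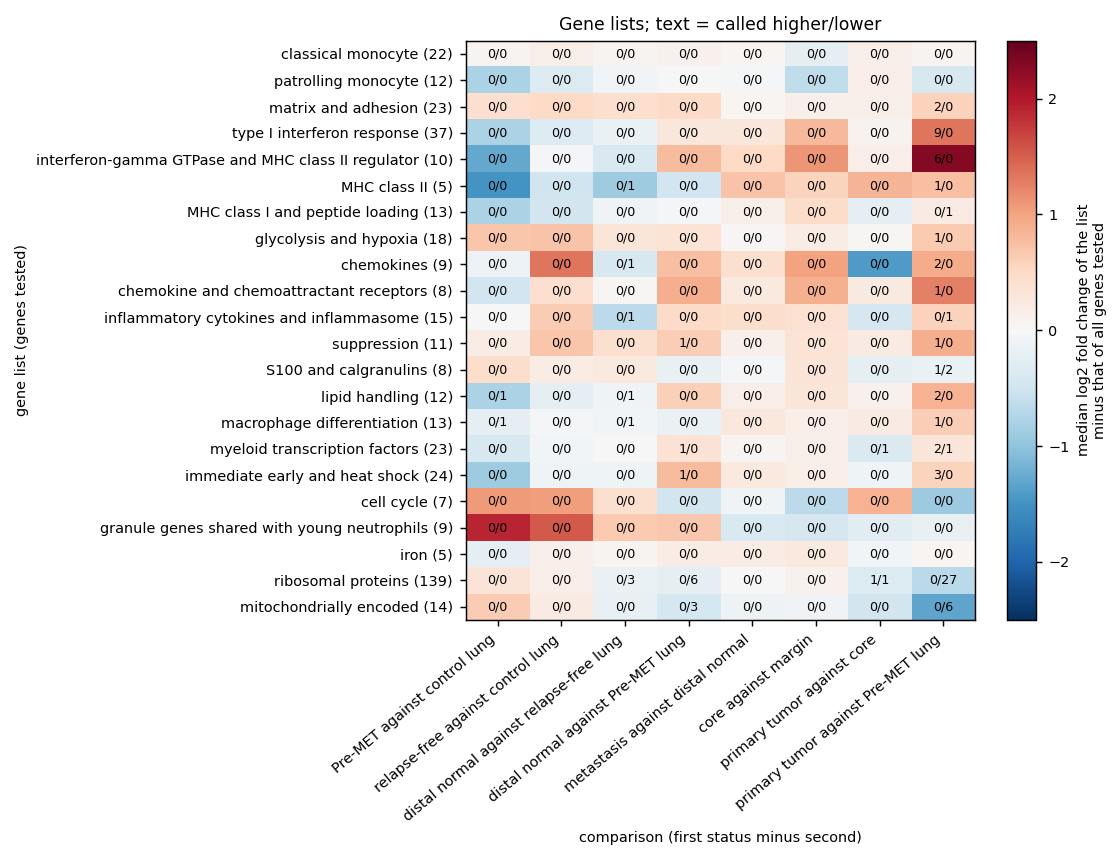
Gene lists (rows, with the number of genes tested) by comparison (columns), where color is the median log2 fold change of the list minus that of all genes tested and text gives the number called higher/lower. The type I IFN list has 9 genes called higher and the IFNγ GTPase list 6 in PT against Pre-MET lung, and both lists have 0 called in core against margin.

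Metastases and distal normal tissue came from the same lungs. edgeR called 0 genes (0%) and DESeq2 0, with 78 at an unadjusted p below 0.05 of 3874. *Sdc4*, a syndecan that binds fibronectin, had the smallest p: it had 22 UMIs in 6 of 13 metastases and 1 UMI in 13 distal normal tissues, a ratio of 26.3 (95% counting interval 4.26 to 1087; edgeR log2 fold change 3.90 ± 0.93, adjusted p = 0.244). The metastasis of mouse 23 was highest, at 279 CPM. *Ly6a* ran from 0 to 671 CPM in metastases (median 79.8 CPM) and from 0 to 117 CPM in distal normal tissue (median 18.5 CPM), higher in the metastasis in 9 of 12 mice (1.52 ± 0.54, adjusted p = 0.999). *Isg15* was higher in 8 of 12 mice, and its highest value anywhere was 2020 CPM in the metastasis of mouse 33, a sum in which 1 UMI is worth 112 CPM.

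When the sums from deeply sequenced wells (a median of at least 3000 UMIs) were left out, 3 genes were called higher in metastases, *Hspa1a* (log2 fold change 3.57, adjusted p = 0.00538), *Hspa1b* (3.33, 0.0231) and *Jun* (1.65). This setting was not planned and was applied to this comparison only. The batch term and mouse as a block each gave 0 calls. Over all sums *Jun* ran from 0 to 898 CPM in metastases (median 305 CPM) and from 32.6 to 449 CPM in distal normal tissue (median 117 CPM), and was higher in the metastasis in 9 of 12 mice (1.01 ± 0.33, adjusted p = 0.999). Of 24 immediate early and heat shock genes, 21 were above 0 with a median of 0.21, against -0.02 over all genes. For type I IFN the median was 0.26 with 31 of 37 genes above 0.

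The Pre-MET and distal normal lung, before and after lesions had formed, differed in 65 genes (1.68%), 10 higher in distal normal tissue (0.258%) and 55 lower (1.42%). Of the 55, 26 were pseudogenes, 6 ribosomal protein genes and 3 mitochondrial genes. The statuses share no batch, so batch and status cannot be told apart. *Nr4a2* had 21.3, 19.5 and 47.5 CPM in the Pre-MET lungs of mice 8, 9 and 10 and 24.7 to 655 CPM (median 172 CPM) in 13 distal normal tissues, of which 12 were above all Pre-MET lungs (2.68 ± 0.63, edgeR adjusted p = 0.00666).

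*Ier3*, an early response gene that limits cell death, had 21.3, 74.6 and 25.0 CPM in Pre-MET lungs and 77.9 to 454 CPM in distal normal tissue, which did not overlap (2.35 ± 0.65, edgeR adjusted p = 0.0348). *Ptgs2*, which encodes the cyclooxygenase COX-2, had 9.12, 25.9 and 15.0 CPM and 0 to 242 CPM with overlap (2.71 ± 0.75, adjusted p = 0.0338). *Nfkbid*, an atypical IκB protein (4.35, 0.00344), and the antiviral gene *Ifitm7* (2.19, 0.00771) were also called. Each of these 5 lost the call without at least 2 of the 3 Pre-MET lungs left out in turn, and 26 to 41 genes were called in all. Of those genes only 0, 3 and 2 were higher in distal normal tissue without Pre-MET mouse 8, 9 or 10, against 10 with all 3 lungs. Of 24 immediate early and heat shock genes, 1 was called higher, 23 were above 0 and the median was 0.79, against 0.00 over all genes. The same list had a median of -0.69 with 3 of 24 above 0 in Pre-MET against control lungs. Type I IFN response genes had 30 of 37 above 0 and a median of 0.29, with 0 called.

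Mice with metastases and relapse-free mice were compared through lung free of lesions. edgeR called 23 genes (0.594%), 1 higher in distal normal tissue (0.0258%) and 22 lower (0.568%). Of the 22, 8 were pseudogenes, 5 noncoding and 3 ribosomal protein genes, and 6 were other protein-coding genes, *Apoe*, *H2-Ab1*, *Ccl5* and *Tmem176b* among them. *H2-Ab1* (chr17:34257689-34269419, plus strand), an MHC class II chain, ranged from 83.3 to 600 CPM in the 6 relapse-free lungs (median 315 CPM) and from 0 to 222 CPM in distal normal tissue (median 86.1 CPM). Relapse-free mice 29 and 35 overlapped with distal normal tissue and the other 4 did not (-2.18 ± 0.43, edgeR adjusted p = 0.00319). All 5 MHC class II genes tested were below 0, with a median of -0.90.

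*Apoe* (chr7:19696109-19699188, minus strand) ranged from 381 to 3500 CPM in relapse-free lungs (median 1456 CPM) and from 70.5 to 1949 CPM in distal normal tissue (median 395 CPM), with only mouse 23 of the latter above 1000 CPM (-1.75 ± 0.38, edgeR adjusted p = 0.00781). *Ccl5*, a chemokine for T cells, ranged from 54.5 to 580 CPM and from 10.2 to 232 CPM (-2.07 ± 0.46, adjusted p = 0.0103). NK cells hold far more *Ccl5*, with a median of 27681 CPM in *NK Ncr1*, and the 11 NK marker genes made up 0 to 0.043% of UMIs in relapse-free lungs and 0.002 to 0.023% in distal normal tissue, with medians of 0.023% and 0.006%. The 2 NK markers tested, *Nkg7* (-1.66 ± 0.59) and *Gzma* (-2.04 ± 0.64), were also lower in distal normal tissue, both with an unadjusted p below 0.05 and without a call (adjusted p 0.205 and 0.131). Their part in the result was not tested. *Tmem176b*, which restrains the NLRP3 inflammasome, ranged from 19.8 to 411 CPM and from 0 to 173 CPM (-1.73 ± 0.42, adjusted p = 0.0255). With the batch term 0 genes were called, with 197 at an unadjusted p below 0.05. Relapse-free mice 6, 7 and 11 were in batches with no other status in that fit, so it rests on 3 of the 6 relapse-free lungs. The log2 fold changes were then -1.33 for *Apoe*, -1.22 for *Tmem176b*, -1.13 for *H2-Ab1* and -0.71 for *Ccl5* (edgeR adjusted p 0.842 to 0.999).

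The effect of a primary tumor on the lung was asked by Pre-MET against control lungs. One gene was called (0.0258%), with 399 at an unadjusted p below 0.05 and 0 called by DESeq2. *Apoe* had 2271, 2136 and 2111 CPM in control mice 1, 2 and 3 and 234, 217 and 188 CPM in Pre-MET mice 8, 9 and 10, so that the groups did not overlap (log2 fold change -3.22 ± 0.69, edgeR adjusted p = 0.0394). The call was lost without each of the 6 lungs in turn, with log2 fold changes of -3.31 to -3.04 and adjusted p up to 0.334. *Apoe* transcripts are far more abundant in macrophages (median 11717 CPM in *Mac Gpnmb*), and the 10 alveolar macrophage markers made up 0.002 to 0.015% of UMIs in control and 0.002 to 0.004% in Pre-MET lungs. *Apoe* is also higher in *Mon Ace* (median 2312 CPM), and the 20 patrolling monocyte genes made up 0.214 to 0.466% of UMIs in control and 0.171 to 0.178% in Pre-MET lungs. The part of either in the result was not tested.

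Of 23 matrix and adhesion genes 0 were called in Pre-MET against control lungs. *Vcan* had 18.5, 26.9 and 54.8 CPM in control and 255, 334 and 245 CPM in Pre-MET lungs of mice 8, 9 and 10 (3.25 ± 0.87, edgeR adjusted p = 0.283), and *Tgfbi*, a matrix protein induced by TGFβ, 80.6 to 329 CPM and 619 to 790 CPM (1.95 ± 0.48, adjusted p = 0.176). Neither gene overlapped between the groups. *Ccl5* had 255 to 494 CPM in control and 30.0 to 54.7 CPM in Pre-MET lungs (-2.95 ± 0.82, adjusted p = 0.283), and the NK marker genes made up 0.033 to 0.041% of UMIs in control and 0.003 to 0.009% in Pre-MET lungs. The granule genes shared with young neutrophils had a median of 2.10 with 6 of 9 at an unadjusted p below 0.05, against 0.19 over all genes. The summed level of the list was 3.94 to 4.79% of UMIs in control and 2.32 to 3.32% in Pre-MET lungs. That list holds *Lyz2*, the most abundant transcript of these cells (median 25958 CPM over all 54 sums), which weighs heavily in the summed level. The 12 neutrophil markers without *S100a8* and *S100a9*, some of which are on both lists, made up 0.003 to 0.030% of UMIs in control and 0.026 to 0.030% in Pre-MET lungs, and their part was not tested. Type I IFN response genes lay below 0 in 27 of 37 cases, with a median of -0.60.

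Relapse-free lungs gave 0 calls against control lungs (0%; edgeR), with 404 genes at an unadjusted p below 0.05 and 0 by DESeq2. *Vcan* had 37.3 to 827 CPM in the 6 relapse-free lungs (median 102 CPM), 5 of them above all control lungs (3.17 ± 0.83, edgeR adjusted p = 0.19). *Apoe* was not lower in all of them, with 1 relapse-free lung above all control lungs (-0.42 ± 0.54, adjusted p = 0.877). Of the 23 matrix and adhesion genes 21 were above 0, with a median of 0.67 against 0.17 over all genes.

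Pre-MET and relapse-free lungs could be compared within shared sequencing batches, in 3 against 2 mice and 532 against 122 wells. This comparison was added after the batches had been seen. Of the 122 relapse-free wells 34, all from mouse 7, were sorted on GFP, and none of the Pre-MET wells. Of 5291 genes 7 (0.132%) were called, 4 higher and 3 lower in Pre-MET lungs, and none was a pseudogene, with 650 at an unadjusted p below 0.05. *Apoe* had 1218 and 1252 CPM in relapse-free mice 6 and 7 and 188 to 234 CPM in the 3 Pre-MET lungs (-2.5 ± 0.25, edgeR adjusted p = 0.000137). *Chil3*, a chitinase-like protein of inflammatory monocytes and young neutrophils, had 649 and 523 CPM against 1554 to 2895 CPM (1.89 ± 0.31, adjusted p = 0.0218), and *Lgals1*, which encodes galectin-1, 269 and 532 CPM against 1566 to 1773 CPM (2.05 ± 0.30, adjusted p = 0.00989). *Cdkn1a*, the cell cycle inhibitor p21 (-1.58), and *Trf*, which encodes transferrin (-2.03), were lower, and *Ndufa13* and *Psmb3* were higher. None of the 7 genes overlapped between the groups, but with 3 against 2 mice this adds nothing to the calls. The share of all 5291 genes without overlap was not counted.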

How the data were processed

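The authors sorted single immune cells into 384-well plates, made 3′ libraries with SPID-seq, demultiplexed them (bcl2fastq 2.15.0.4 in the submitters' processing notes), mapped reads to mm10 with HISAT, excluded reads with multiple mapping positions, and deposited raw UMI counts per gene and well for 148 plates, without normalization, with a table of each well's mouse, sequencing batch and subpopulation from their clustering. Replicates are mice. *Mon Fn1* wells were taken from that table and were not clustered again or screened for doublets, which the authors' sort excluded by gate. The members, gene lists and tests were chosen with earlier results of these data known.

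UMI counts of wells were summed per mouse and status, in sums of at least 10 wells. Sums of all 8 statuses entered one fit with edgeR 4.0.16 in R 4.3.3 (TMM, filterByExpr, glmQLFit and glmQLFTest, Benjamini-Hochberg over 3874 genes, call at an adjusted p below 0.05), and 8 contrasts were taken from it. Spike-in rows stayed out of the sums and held 0% of their UMIs. Shares were compared for samples of at least 5 monocytes by two-sided permutation of sample labels (scipy 1.17.1, exact, or 100000 resamples for metastasis against distal normal tissue). Depth limits precision: intervals and floors (3 UMIs over a group) cover counting error only. Errors of log2 fold changes are the absolute log2 fold change divided by the square root of the F statistic of its test. They approximate a standard error and are not estimated by the fit, and are least reliable where a group holds few or no UMIs.

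Genes were named by a rule: the 8 largest rises and falls among called genes of at least 50 CPM in one of the statuses, the 10 smallest p of the test over 8 statuses, and called or defining members of 31 gene lists. The genes given for core against margin and metastasis against distal normal tissue, *Csgalnact2* in margins, *Tagln2*, and those from the comparison in shared batches were chosen after their values were seen, since few or no genes were called there. Positions come from GENCODE vM21 and promoters from RefSeq (GRCm38.p6). Alternatives were DESeq2 1.42.0, its size factors in edgeR, no filter, other minimums of wells or UMIs, a batch term, 2 statuses alone, mouse as block, and each library of the groups of up to 5 left out. Leaving out sums of deeply sequenced wells was not planned and was done for metastasis against distal normal tissue only. The scripts were tested on simulated counts with the depths of these sums. Of genes changed by log2 1, edgeR called 1% (PT against Pre-MET) to 35% (metastasis against distal normal). Of genes changed by log2 2, it called 15% (Pre-MET against control) to 82% (metastasis against distal normal). In core against margin it called 3% and 42%. Few or 0 calls therefore do not mean that levels were equal.

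Pairs of statuses came from the same animal, as the mouse of each sample gives. After removing status means, the sums of 1 mouse had a mean correlation across genes of 0.148 for metastasis and distal normal tissue (12 mice, -0.016 to 0.411), 0.119 for core and margin (3 mice) and 0.026 for PT and Pre-MET lung (3 mice).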

Additional observations from a re-analysis of the deposited data

Results flagged for a closer look

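Of 40 groups of 4 to 10 samples examined, 5 held a sample whose distance from its nearest neighbor exceeded Dixon's 95% critical value. Chance gives about 1 in 20 for normally distributed values, a rate that does not hold for counts with many zeros. Where all samples but 1 are at 0, as for *S100a9* and *Ly6a* below, the flag is certain whatever the value. *Ifit3* was 945 CPM in the PT of mouse 10, against 112 to 243 CPM in the other PT. *S100a9* was 10.1 CPM (1 UMI) in the same sum and 0 in the others. *Clec4d* was 0 in the core of mouse 31 and 300 CPM or more in the other 6 cores. *Cxcl10* was 267 CPM in the margin of mouse 36 and at most 16.2 CPM in the other margins, and *Ly6a* was 61.3 CPM in the margin of mouse 17, the deepest, and 0 in the other 4.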

How the results depend on the processing

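A result here is 1 named gene in 1 comparison or in the test over 8 statuses, so a gene can count more than once. Of 1134 values of 99 results under edgeR alternatives, 884 kept direction and call, 246 kept the direction only and 4 reversed, all with the batch term (*Gm22761* 0.22, *Gm25594* 0.53 and *Gm7618* 0.0087 in distal normal against relapse-free lung, *Rpl35* 0.71 in PT against core). The 10 results of the test over 8 statuses have no direction and were judged by the call alone. Calls are given in the order Pre-MET against control, relapse-free against control, distal normal against relapse-free, distal normal against Pre-MET, metastasis against distal normal, core against margin, PT against core, PT against Pre-MET, any difference, where a setting moved them beyond 1.5 times. Without a filter the first 4 became 6, 23, 192 and 324, core against margin 4 and any difference 2115, with 300 in PT against Pre-MET. With sums of at least 5 wells Pre-MET against control gave 0 and PT against core 42. With at least 20 wells distal normal against relapse-free gave 38 and any difference 155, and PT had no sums. With wells of at least 1000 UMIs the first 4 gave 0, 1, 57 and 98, core against margin 1 and PT against core 2. The batch term gave 0 for distal normal against relapse-free, 1 for core against margin, 1 for PT against core (1 PT in effect) and 24 for any difference, and could not be fitted for the others with control or Pre-MET lungs. Fitting 2 statuses alone gave 11 for Pre-MET against control, 135 for distal normal against Pre-MET, 5 for PT against core and 395 for PT against Pre-MET. DESeq2 gave 0, 10 (distal normal against relapse-free), 33 (against Pre-MET), 67 (PT against core) and 444 (any difference). Without deeply sequenced sums metastasis against distal normal gave 3. The cause of these moves was not tested. DESeq2's size factors moved the median log2 fold change of all genes from 0.06 to 0.18 in PT against Pre-MET and from -0.14 to -0.03 in core against margin, while the type I IFN medians moved to 1.502 and 0.817.

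With 1 library left out in turn the calls ranged from 0 to 0 in Pre-MET against control, 0 to 1 in relapse-free against control, 26 to 41 in distal normal against Pre-MET, 0 to 0 in core against margin (margins only), 2 to 13 in PT against core, 148 to 257 in PT against Pre-MET and 224 to 288 for any difference. Where a group kept 2 samples, the spread came from all statuses. The share difference ranged from 17.3 to 18.3 points in relapse-free against control and from -3.80 to 1.84 points in distal normal against Pre-MET, and reversed there, to 1.84, without Pre-MET mouse 8. As percentages of immune cells the share differences were -5.24 points in metastasis against distal normal and -3.11 points in PT against core.

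With mouse as a replicate block, metastasis against distal normal gave 0 calls, core against margin 0 and PT against Pre-MET 264 (78 higher), so the pairing moved no count of calls beyond 1.5 times. The block removed the calls of *Gbp7* and left the calls of shares as they were.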

Other observations

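The most abundant transcripts of *Mon Fn1* were *Lyz2* (median 25958 CPM over 54 sums), *Tmsb4x* (19401 CPM), *Ftl1* (7974 CPM) and *Actb* (7718 CPM), with *Gm42418*, which overlaps ribosomal RNA sequence, at 8511 CPM.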
